A study of Mus musculus with 17 samples.

Results

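Interferon-stimulated genes are the genes that a cell switches on when type I interferon binds its receptor. Their transcripts were followed here in mouse common myeloid progenitors, the sorted blood precursors that give rise to granulocytes, monocytes, megakaryocytes and red cells. The set was a list of 39 gene symbols. Counts of each gene's RefSeq transcripts were summed, and a gene was kept when at least 2 of the 17 libraries held 10 or more counts of it. Of the 39 genes, 34 were kept, out of 24416 genes in the files, and all 34 were among the 13558 genes tested. The 5 genes not kept were Ifih1, Mx1, Mx2, Ifi27 and Gbp3. RefSeq lists Mx1 and Mx2 as transcribed pseudogenes on its mouse reference genome, and 4 of the 5 have more than 1 transcript in the files. Ifi44 passed the count minimum only through bone marrow libraries, so its fetal level was bound to be low.

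The 17 libraries fell into 7 groups. Fetal liver progenitors came from wild-type C57BL/6J mice (3 libraries), from C57BL/6J mice labelled Lin28b KO (3 libraries) and from a C57BL/6J line with inducible Let-7 (1 library). Adult bone marrow progenitors came from wild-type C57BL/6J mice (3 libraries), from C57BL/6J mice with inducible LIN28B (2 libraries), from C57BL/6J mice with inducible LIN28B under vavcre (2 libraries) and from Let-7b/c knock-out mice of the strain albino black 6 (3 libraries). Lin28b binds RNA and blocks the maturation of let-7 microRNAs, and it is known for its presence in fetal but not adult blood progenitors. The name vavcre stands for a Cre recombinase under the Vav promoter, which restricts induction to blood cells. The source label of the other inducible LIN28B line names no vavcre and does not say where induction took place. The labels name doxycycline as the inducer of Lin28b in the same words for every sample, and give no age beyond fetal or adult. Nothing in them states separate animals for replicate libraries. A p-value here is therefore set only against how far libraries of the same group lay apart, and part of that may be technical. This spread was estimated over the groups together, so a p-value also rests on libraries outside the groups compared.

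In the type I interferon pathway, the receptor subunits Ifnar1 and Ifnar2 activate the kinases Jak1 and Tyk2. A complex that holds Stat2 and Irf9 then binds a promoter sequence called the interferon-stimulated response element (ISRE). Another element, the gamma-activated site (GAS), is known mainly from the response to interferon gamma. The genes switched on in this way encode sensors of viral RNA, enzymes that degrade or block it, and a feedback arm. In blood formation, interferon is known to push resting stem cells into the cell cycle and to act on the emergence of fetal blood stem cells.

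The promoters of several of these genes carry the response element itself. A search for the ISRE core GAAANNGAAA, on both strands of the 250 bases before each annotated start, found it in 13 of the 27 kept genes that had a RefSeq promoter window. That is 48.1% of those genes, against 3.46% of all 27025 genes with a window. The GAS core TTCNNNGAA was found in 5 of the 27 (18.5%), against 8.13% of all genes, and in Bst2 it overlapped an ISRE core. The cores of 8 of the 13 genes are printed here, because they are the core of the element that defines this response. All 8 lie before the annotated extent of their own gene. Oasl2, Rtp4, Cmpk2, Lgals3bp and Samd9l, which were called in several comparisons below, were not among the 13. A gene without a window could not be searched. The printed stretches are RefSeq sequence of build GRCm38.p6, read 5′ to 3′ on the strand of the gene, with the cores in capitals. A core on the opposite strand appears as its reverse complement.
Isg15, chr4:156200863-156200908, minus strand: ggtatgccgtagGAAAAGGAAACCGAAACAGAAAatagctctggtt
Ifit1, chr19:34640773-34640825, plus strand: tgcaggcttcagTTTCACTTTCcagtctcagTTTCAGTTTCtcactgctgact
Rsad2, chr12:26456551-26456584, minus strand: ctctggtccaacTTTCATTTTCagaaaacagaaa
Oas3, chr5:120777713-120777746, minus strand: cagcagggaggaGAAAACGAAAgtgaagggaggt
Bst2, chr8:71537575-71537614, minus strand: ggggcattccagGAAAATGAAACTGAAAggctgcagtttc
Gbp2, chr3:142620592-142620625, plus strand: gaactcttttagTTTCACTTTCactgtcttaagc
Irgm1, chr11:48871423-48871462, minus strand: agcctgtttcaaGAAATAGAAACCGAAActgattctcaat
Igtp, chr11:58199510-58199543, plus strand: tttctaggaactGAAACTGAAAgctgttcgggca
Isg15 held 3 overlapping cores, Bst2 and Irgm1 held 2 overlapping cores each, and Ifit1 held 2 separate ones. A match describes letters only, and these libraries hold no measurement of binding.

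**Figure D1:**
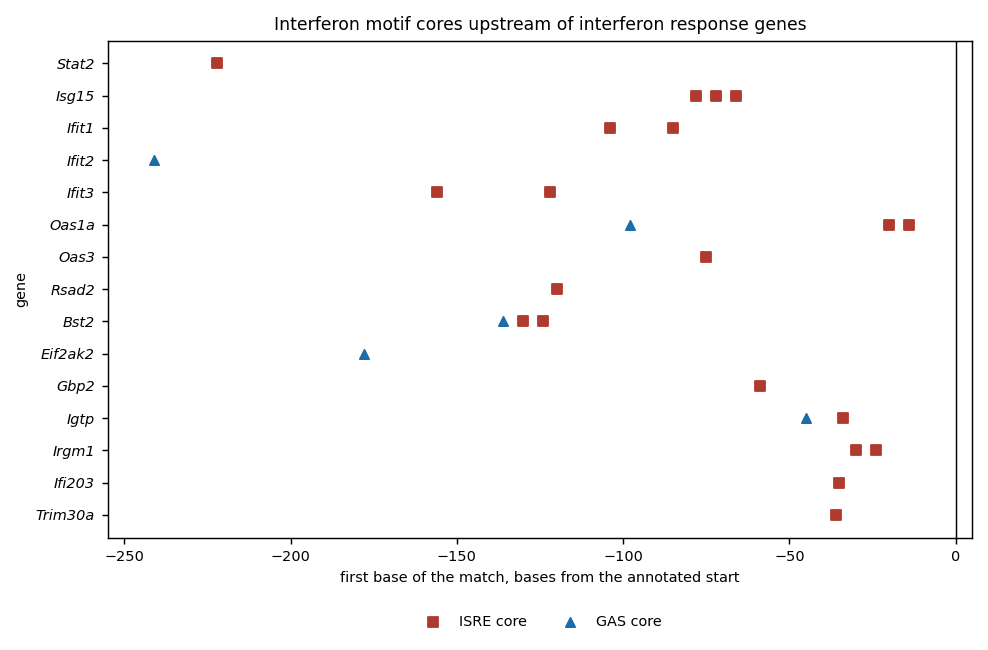
Positions of motif cores in the 250 bases before the annotated start of kept interferon response genes. The x axis gives the first base of each match in bases from the start, each line is a gene, red squares are ISRE cores and blue triangles are GAS cores. The 13 genes with an ISRE core include Isg15, with 3 cores between -78 and -66.

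The summed counts of the libraries ran from 14957111 to 28165554. Reads that fitted more than 1 transcript (23.8% to 29.8% of reads) had been set aside, so genes with several annotated transcripts are undercounted. Irf7, Stat3, Tlr7, Sting1 and Cgas had 0 counts in all 17 libraries, and no level is read from them. The same holds for the cell type markers Kit, Cebpa, S100a9, Ccr9 and Pacsin1, each with more than 1 transcript. Values are CPM, a gene's count relative to its library's effective size, and are compared between libraries, not between genes of different length. Lin28b itself was at 89.3 to 124 CPM in wild-type fetal liver and at 88.9 to 112 CPM in the libraries labelled Lin28b KO, so these counts do not separate the labelled knockout from wild type; the labels do not state which part of the gene was deleted. The labelled knockout libraries also differed in their markers. All 8 erythroid markers were called higher there than in wild-type fetal liver (summed 21729 to 25214 CPM against 187 to 355), as were all 8 macrophage markers (320 to 372 against 6.40 to 10.3), 7 of 7 tested neutrophil markers (1770.4 to 3884 against 5.79 to 40.7) and 7 of 7 tested hepatocyte markers (459 to 1458 against 97.95 to 106), while 4 of 5 tested progenitor markers were called lower. The single inducible let-7 library had 28.5% of all tested genes at 0 counts, against 5.18% to 17.3% in the other 16.

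Summed over the 34 genes, the level split by tissue. Wild-type fetal liver libraries held 815 to 841 CPM and wild-type marrow libraries 1671 to 1701 CPM. The labelled knockout fetal libraries held 600.5 to 847 CPM and the inducible let-7 library 862 CPM. Among the engineered marrow groups, LIN28B without vavcre held 1573 to 1623 CPM, LIN28B with vavcre 2043 to 2066 CPM, and let-7b/c knockout 1343 to 1494 CPM. By mean, the group with the highest level was LIN28B with vavcre for 20 of the 34 genes. The lowest was the labelled knockout for 21 and wild-type fetal liver for 12. The single let-7 library was left out of this ranking. Groups were not ranked in this way over all tested genes, so these counts only describe the set. In bulk RNA, fewer cells of a kind and less RNA per cell cannot be told apart.

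**Figure D2:**
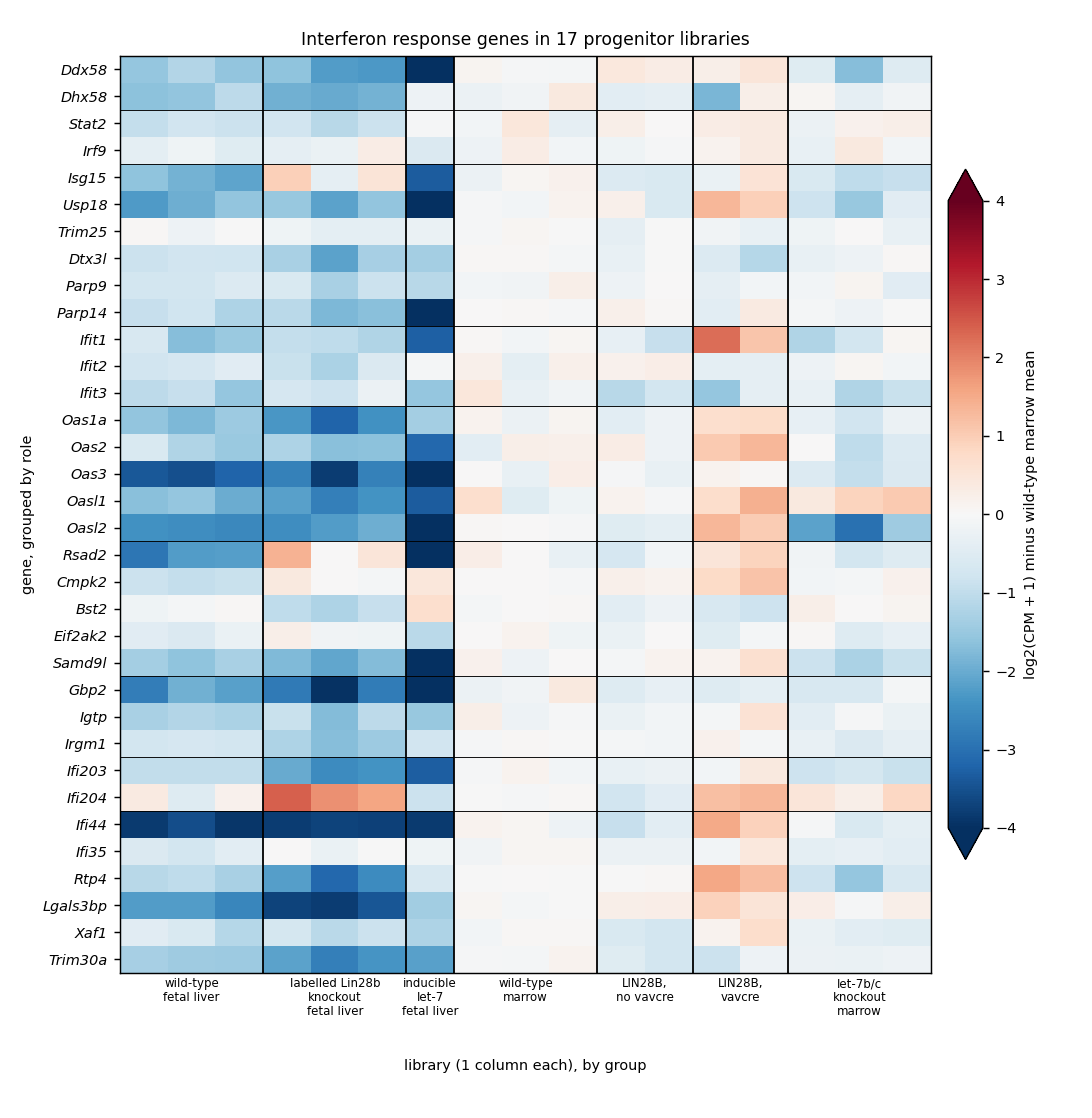
Levels of the 34 kept genes (rows, grouped by role) in the 17 libraries (columns, by group). Colour is log2(CPM + 1) minus the wild-type marrow mean on the same scale, red above and blue below, with colours saturating at 4. The 3 fetal groups are mostly blue and the 2 LIN28B vavcre columns hold most of the red, while Isg15 and Rsad2, blue in the wild-type fetal columns, are red in labelled knockout libraries 3 and 8 and near 0 or below in library 6.

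The genes are taken by role in the next paragraphs. Values are CPM, one per library, and always in the order of library numbers 1, 4 and 5 (wild-type fetal liver), 3, 6 and 8 (labelled knockout), 2, 5 and 6 (wild-type marrow), 1 and 5 (LIN28B without vavcre), 4 and 6 (LIN28B with vavcre) and 1, 2 and 3 (let-7b/c knockout).

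The RNA sensors came first in the pathway. Ddx58 encodes RIG-I, a helicase that recognises viral RNA in the cytoplasm. In fetal liver its level was 12.9, 16.96 and 12.6 in wild type, 12.4, 7.68 and 7.25 in the labelled knockout and 0.155 in the let-7 library. In marrow it was 43.5, 38.5 and 37.7 in wild type, 53.7 and 48.7 without vavcre, 46.9 and 55.9 with vavcre and 28.4, 11.4 and 27.7 in the let-7b/c knockout. Every marrow library except let-7b/c knockout 2 lay above every fetal library. Dhx58 encodes LGP2, a helicase that tunes RIG-I and MDA5. Its fetal values were 7.26, 7.48 and 11.4 in wild type, 5.79, 5.34 and 5.83 in the labelled knockout and 21.3 in the let-7 library. In marrow Dhx58 stood at 20.6, 22.1 and 32.8 in wild type, 18.2 and 18.97 without vavcre, 6.20 and 29.1 with vavcre and 25.96, 19.1 and 22.1 in the let-7b/c knockout. The vavcre pair spanned 6.20 to 29.1, so that group gave no single level for Dhx58. Ifih1, which encodes MDA5, had at most 8 counts in any library and was not tested.

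Stat2 and Irf9 are the transducers whose complex binds the response element. Stat2 was at 43.5, 49.4 and 45.8 in wild-type fetal liver, 49.8, 38.6 and 46.2 in the labelled knockout and 82.3 in the let-7 library. Marrow values were 78.4, 116 and 66.2 in wild type, 99.7 and 85.9 without vavcre, 103 and 109 with vavcre and 71.3, 95.2 and 100.1 in the let-7b/c knockout. The 3 wild-type fetal libraries lay below the 3 wild-type marrow libraries, and every engineered marrow value lay inside the wild-type marrow range. Irf9 has 3 transcripts in the files, so reads they share were not counted, and it was under 1 CPM in all 17 libraries. It read 0.136, 0.323 and 0.0573 in wild-type fetal liver, 0.158, 0.235 and 0.812 in the labelled knockout and 0 in the let-7 library. In marrow Irf9 read 0.298, 0.820 and 0.383 in wild type, 0.304 and 0.430 without vavcre, 0.633 and 0.886 with vavcre and 0.216, 0.962 and 0.364 in the let-7b/c knockout. The ranges of wild-type fetal liver and wild-type marrow overlapped for Irf9.

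The ISG15 system conjugates a ubiquitin-like protein to other proteins. Isg15 encodes that protein. Its level was 2.27, 1.72 and 1.32 in wild-type fetal liver, 18.3, 6.86 and 13.2 in the labelled knockout and 0 in the let-7 library. In marrow it was 7.50, 9.60 and 10.2 in wild type, 5.89 and 5.53 without vavcre, 7.39 and 13.8 with vavcre and 5.62, 3.96 and 4.27 in the let-7b/c knockout. The labelled knockout was above wild-type fetal liver in all 3 libraries and spanned the wild-type marrow range. Usp18 encodes the protease that removes ISG15 and also blocks the interferon receptor. It stood at 6.85, 8.83 and 11.6 in wild-type fetal liver, 12.4, 7.63 and 11.8 in the labelled knockout and 0 in the let-7 library. Marrow libraries gave 35.8, 34.6 and 40.9 in wild type, 42.7 and 23.8 without vavcre, 94.1 and 72.1 with vavcre and 20.4, 12.4 and 26.5 in the let-7b/c knockout. Both vavcre libraries exceeded all others for Usp18. Trim25, a ubiquitin ligase that activates RIG-I, was nearly level, at 106, 90.6 and 101 in wild-type fetal liver, 91.1, 77.9 and 79.4 in the labelled knockout and 86.3 in the let-7 library. Trim25 in marrow was at 99.7, 109 and 102 in wild type, 80.9 and 103 without vavcre, 93.2 and 83.4 with vavcre and 91.9, 105 and 84.6 in the let-7b/c knockout, and the 2 wild-type groups overlapped. Dtx3l, the partner ligase of the ADP-ribosyl transferase Parp9, overlaps Parp9 by 558 bases, so reads of the pair may not be cleanly divided. Dtx3l was at 80.5, 86.8 and 84.3 in wild-type fetal liver, 59.5, 32.5 and 58.1 in the labelled knockout and 56.2 in the let-7 library. In marrow Dtx3l was at 152, 150.4 and 138 in wild type, 119 and 145 without vavcre, 99.4 and 65.3 with vavcre and 119, 127 and 150.2 in the let-7b/c knockout. The vavcre pair lay below every wild-type marrow library for Dtx3l, against the direction of Usp18. Parp9 and Parp14, both ADP-ribosyl transferases, were at 43.1 to 49.4 and 18.6 to 25.6 in wild-type fetal liver and at 66.8 to 86.4 and 43.5 to 46.6 in wild-type marrow.

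IFIT proteins bind viral RNA and block its translation. Ifit1 was at 5.08, 1.94 and 2.41 in wild-type fetal liver, 3.89, 3.75 and 3.15 in the labelled knockout and 0 in the let-7 library. In marrow it was at 8.74, 7.79 and 9.09 in wild type, 6.62 and 3.98 without vavcre, 43.4 and 19.4 with vavcre and 3.14, 4.75 and 9.10 in the let-7b/c knockout. Both vavcre libraries exceeded the other 15, but they differed from each other by more than the whole range of wild-type marrow. Ifit2 stood at 27.7, 29.7 and 34.8 in wild-type fetal liver, 25.5, 19.2 and 31.8 in the labelled knockout and 45.3 in the let-7 library. Marrow values of Ifit2 were 55.6, 35.96 and 54.7 in wild type, 53.5 and 57.4 without vavcre, 36.1 and 36.7 with vavcre and 41.2, 50.9 and 44.4 in the let-7b/c knockout. Ifit2 in the vavcre pair was at the lower edge of the wild-type marrow range, unlike Ifit1. Ifit3 was at 0 to 0.538 in wild-type fetal liver and 1.41 to 2.98 in wild-type marrow. Ifit1 overlaps the related gene Ifit1bl1, and reads shared between them would not have been counted.

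The OAS enzymes make a messenger that activates the RNA-degrading RNase L. Oas1a was at 10.6, 8.99 and 11.8 in wild-type fetal liver, 5.89, 2.82 and 5.53 in the labelled knockout and 12.5 in the let-7 library. In marrow it was at 37.3, 28.6 and 36.3 in wild type, 24.8 and 29.3 without vavcre, 54.8 and 57.4 with vavcre and 26.9, 19.6 and 28.4 in the let-7b/c knockout. Wild-type fetal liver was 3.25-fold below wild-type marrow in the fit, and the vavcre pair lay above the rest. Oas3 was at 1.04, 0.861 and 1.32 in wild-type fetal liver, 2.26, 0.528 and 2.28 in the labelled knockout and 0 in the let-7 library. Its marrow values were 20.8, 16.5 and 24.98 in wild type, 19.7 and 16.4 without vavcre, 22.5 and 21.3 with vavcre and 13.7, 10.02 and 13.3 in the let-7b/c knockout. Oas3 separated fetal from marrow libraries without overlap in any group. Oasl2, an OAS-like protein, was at 6.94, 6.57 and 6.19 in wild-type fetal liver, 6.68, 8.04 and 9.99 in the labelled knockout and 0.0388 in the let-7 library. In marrow Oasl2 was at 43.5, 41.6 and 39.8 in wild type, 29.6 and 31.2 without vavcre, 107 and 84.7 with vavcre and 8.71, 4.41 and 15.03 in the let-7b/c knockout. For Oasl2 the vavcre pair was above and the let-7b/c knockout below all wild-type marrow libraries. Oas2 and Oasl1 were at 2.29 to 5.08 and 1.55 to 2.42 in wild-type fetal liver and at 5.86 to 9.72 and 6.21 to 14.9 in wild-type marrow. The OAS genes lie in clusters of related copies, with 3211 bases between Oas2 and Oas3 and 10897 between Oasl1 and Oasl2, and reads common to copies could have been divided between them.

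Among the antiviral effectors, Rsad2 encodes viperin, an enzyme that makes a chain-terminating nucleotide, and Cmpk2 is a mitochondrial nucleotide kinase whose gene lies 12664 bases away. Rsad2 was at 1.18, 2.48 and 2.58 in wild-type fetal liver, 41.7, 15.4 and 21.97 in the labelled knockout and 0 in the let-7 library. In marrow it was at 18.8, 15.6 and 12.3 in wild type, 9.35 and 14.1 without vavcre, 21.9 and 29.5 with vavcre and 13.7, 8.83 and 10.5 in the let-7b/c knockout. The lowest labelled knockout library was still above every wild-type fetal library. Cmpk2 was at 44.8, 42.00 and 43.7 in wild-type fetal liver, 108, 83.8 and 77.7 in the labelled knockout and 114 in the let-7 library. Its marrow values were 83.5, 83.6 and 80.03 in wild type, 95.1 and 89.95 without vavcre, 140.2 and 182 with vavcre and 76.3, 78.7 and 92.2 in the let-7b/c knockout. Cmpk2 followed its neighbour Rsad2 in being low in wild-type fetal liver and higher in the labelled knockout. Bst2 encodes tetherin, which holds budding virions at the cell surface, and is also a surface marker of plasmacytoid dendritic cells. It was at 62.3, 66.6 and 71.6 in wild-type fetal liver, 33.7, 29.04 and 36.6 in the labelled knockout and 113 in the let-7 library. In marrow Bst2 was at 66.7, 70.9 and 71.97 in wild type, 52.4 and 60.7 without vavcre, 43.98 and 39.3 with vavcre and 82.3, 70.9 and 75.3 in the let-7b/c knockout. Bst2 ranges of fetal and adult wild type overlapped, and the gene was lowest in the labelled knockout and vavcre libraries. Samd9l, a translation inhibitor encoded by a gene known from inherited marrow failure, was at 32.6, 27.03 and 34.3 in wild-type fetal liver, 24.3, 19.4 and 24.7 in the labelled knockout and 0.349 in the let-7 library. In marrow Samd9l was at 95.96, 74.1 and 86.5 in wild type, 80.7 and 94.7 without vavcre, 93.2 and 134 with vavcre and 46.8, 34.98 and 45.4 in the let-7b/c knockout. The let-7b/c knockout libraries lay between the fetal and the other marrow libraries for Samd9l. Eif2ak2, which encodes the kinase PKR, ranged from 38.9 to 49.2 in wild-type fetal liver and from 52.4 to 65.5 in wild-type marrow. Mx1 and Mx2 had 5 and 0 counts over all 17 libraries.

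The interferon-induced GTPases act on membranes that enclose pathogens. Irgm1, which guards host membranes and is needed for blood stem cells to withstand interferon gamma, was at 89.4, 93.96 and 90.6 in wild-type fetal liver, 63.8, 45.8 and 54.6 in the labelled knockout and 87.2 in the let-7 library. In marrow Irgm1 was at 147, 155 and 148 in wild type, 143 and 138 without vavcre, 170.0 and 141 with vavcre and 123, 99.6 and 116 in the let-7b/c knockout. The 3 labelled knockout libraries were the lowest of the 17. Igtp, which encodes Irgm3, was at 17.9, 19.7 and 18.6 in wild-type fetal liver, 23.9, 13.1 and 21.4 in the labelled knockout and 15.2 in the let-7 library. Its marrow values were 53.9, 39.9 and 44.4 in wild type, 37.8 and 41.97 without vavcre, 42.8 and 68.5 with vavcre and 33.9, 44.1 and 37.9 in the let-7b/c knockout, and no fetal library reached any marrow library. Gbp2, a guanylate-binding protein, was at 4.27 to 8.45 in wild-type fetal liver, 1.29 to 4.06 in the labelled knockout and 29.3 to 45.2 in wild-type marrow.

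The HIN-200 proteins sense DNA in the nucleus and cytoplasm, and their genes are a cluster of related copies. Ifi203 was at 3.90, 3.88 and 3.95 in wild-type fetal liver, 1.42, 0.704 and 0.862 in the labelled knockout and 0 in the let-7 library. In marrow Ifi203 was at 8.49, 9.66 and 8.11 in wild type, 6.86 and 7.20 without vavcre, 8.10 and 11.8 with vavcre and 4.49, 5.04 and 4.21 in the let-7b/c knockout. Its relative Ifi204 moved the other way in the labelled knockout, at 1.32, 0.269 and 1.03 in wild-type fetal liver, 8.58, 5.40 and 4.36 in the labelled knockout and 0 in the let-7 library. Ifi204 in marrow was at 0.794, 0.761 and 0.876 in wild type, 0.0607 and 0.322 without vavcre, 3.21 and 3.54 with vavcre and 1.51, 1.13 and 2.24 in the let-7b/c knockout. Ifi204 is also a gene of maturing monocytes and macrophages, and the only gene of the 34 with a higher mean in wild-type fetal liver than in wild-type marrow.

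Of the remaining genes, Lgals3bp encodes a secreted glycoprotein that binds galectin. It was at 39.4, 39.5 and 30.4 in wild-type fetal liver, 13.6, 12.8 and 16.7 in the labelled knockout and 71.8 in the let-7 library. In marrow it was at 201, 181 and 188 in wild type, 225 and 229.7 without vavcre, 358 and 273 with vavcre and 228, 184 and 224 in the let-7b/c knockout. The highest fetal library, at 71.8, was far below the lowest marrow library, at 181. Trim30a, a mouse TRIM protein, was at 36.6, 34.5 and 33.5 in wild-type fetal liver, 20.4, 13.3 and 17.7 in the labelled knockout and 20.3 in the let-7 library. In marrow Trim30a was at 90.5, 88.7 and 104 in wild type, 66.7 and 56.7 without vavcre, 51.5 and 81.6 with vavcre and 80.7, 78.95 and 81.8 in the let-7b/c knockout. Ifi44, a cytoplasmic protein strongly induced by interferon, was at 0.0454, 0.269 and 0 in wild-type fetal liver, 0.0526, 0.117 and 0.101 in the labelled knockout and 0.0388 in the let-7 library. Its marrow values were 15.04, 14.5 and 11.8 in wild type, 6.80 and 9.94 without vavcre, 41.5 and 26.8 with vavcre and 13.4, 8.66 and 10.2 in the let-7b/c knockout, so Ifi44 was at most 0.269 in the 7 fetal libraries. Rtp4, which encodes a receptor-transporting chaperone, was at 16.1, 17.5 and 14.1 in wild-type fetal liver, 7.05, 3.23 and 5.48 in the labelled knockout and 22.7 in the let-7 library. In marrow Rtp4 was at 35.8, 36.8 and 36.2 in wild type, 35.6 and 37.2 without vavcre, 108 and 87.3 with vavcre and 19.8, 11.9 and 22.9 in the let-7b/c knockout. Rtp4 in LIN28B without vavcre overlapped the narrow wild-type marrow range, while the vavcre pair stood clear above it and the let-7b/c knockout clear below. Rtp4 overlaps Masp1 on the genome. Ifi35 and Xaf1 were at 34.3 to 43.0 and 0.287 to 1.04 in wild-type fetal liver and at 52.1 to 61.1 and 1.64 to 1.93 in wild-type marrow.

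**Figure D3:**
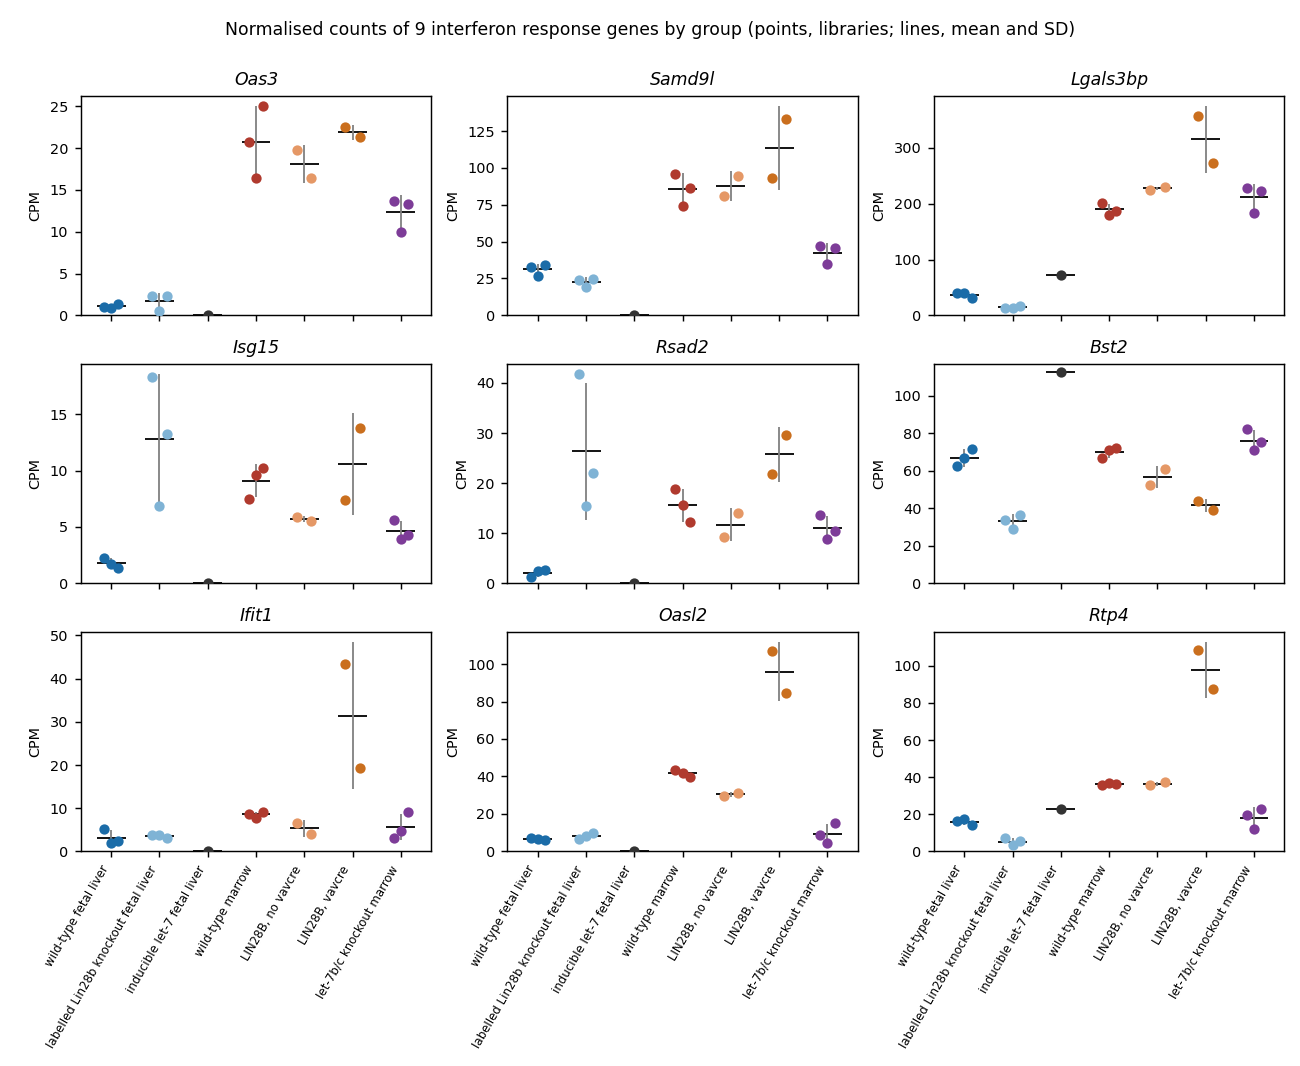
Levels of 9 interferon response genes. Each point is a library, the y axis is CPM from 0, the x axis is the group, the horizontal line is the group mean and the grey bar the SD (none for the single let-7 library). Oas3, Samd9l and Lgals3bp are low in fetal liver, Isg15 and Rsad2 are higher in the labelled knockout than in wild-type fetal liver, and Ifit1, Oasl2 and Rtp4 are highest in the 2 vavcre libraries.

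Wild-type fetal liver was compared with wild-type adult marrow as fetal against adult progenitors, with tissue and stage changing together. Fetal progenitors held less of most of the set: 27 of the 34 genes were called lower (adjusted p under 0.05) and 0 higher, whereas 13.2% of all tested genes were called lower and 13.9% higher. All 5 OAS genes, all 3 kept GTPases, both kept sensors and 5 of 6 genes of the ISG15 system were lower. Ifi44 was kept only through marrow libraries, so its direction was fixed by the count minimum and it supports nothing here. Without it, 26 of 33 genes were lower and 0 higher, and the median log2 difference was -1.31 against -0.08 over all tested genes. In 29 genes the 3 fetal values all lay below the 3 marrow values, a count not taken over all tested genes. The deepest of these differences were in Oas3 (log2 -4.27 ± 0.40, adjusted p = 2.08e-06) and Rsad2 (-2.91 ± 0.39, adjusted p = 5.79e-05). Smaller but closely measured differences were found for Lgals3bp (-2.38 ± 0.14, adjusted p = 1.69e-08), Cmpk2 (-0.92 ± 0.13, adjusted p = 7.38e-05) and Irgm1 (-0.72 ± 0.11, adjusted p = 0.00023). The errors are standard errors of the log2 difference. Ifi44 had 6 counts over the 3 wild-type fetal libraries and 766 over the 3 marrow libraries. The 7 genes not called were Irf9, Trim25, Ifit3, Bst2, Eif2ak2, Ifi204 and Xaf1. Of these, Trim25 (log2 -0.06 ± 0.11) and Bst2 (-0.06 ± 0.11) were measured near 0 with small errors. The pair Ifit3 (-2.63 ± 1.11) and Irf9 (-1.50 ± 0.87) had errors too wide to read. At an unadjusted p under 0.05, 29 of the 33 genes were lower and 0 higher, by edgeR's quasi-likelihood test. No share of all tested genes was taken at that threshold. The calls of Ifit1, Ifit2, Oas2 and Parp9 were lost without at least 1 of the 6 libraries compared, among them wild-type marrow 6 for all 4 genes (adjusted p 0.0576 to 0.0736); the other 23 held under every alternative tried.

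Other genes of the pathway were read from separate lists. Among 37 tested genes of a list of 46 further interferon-stimulated genes, 24 were lower in fetal liver and 1, the RNA-degrading enzyme Pnpt1, was higher (log2 0.51 ± 0.08, adjusted p = 0.000308). Ube2l6, the conjugating enzyme that loads ISG15, was lower (log2 -2.22 ± 0.13, adjusted p = 2.47e-08). Of the receptors and kinases, 5 of 9 could be tested: Ifngr1 and Jak1 were lower, Ifngr2 was higher, and Ifnar1 and Ifnar2 were not called. Irf2, a repressor at response elements, was the 1 of 5 tested interferon regulatory factors called, at log2 -0.46 ± 0.11 (adjusted p = 0.00499). The 10 interferon genes listed had 52 counts in all over the 17 libraries, at most 13 for any of them, so none of these 10 was measurable at this depth. Neutrophil markers moved in the same direction as the set, with 7 of 7 tested called lower (summed 5.79 to 40.7 CPM in fetal liver, 449 to 1020 in marrow, S100a9 not readable). So did 5 of 8 macrophage markers (6.40 to 10.3 against 27.9 to 46.1, none at 0). The part of these markers in the result was not tested.

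**Figure D4:**
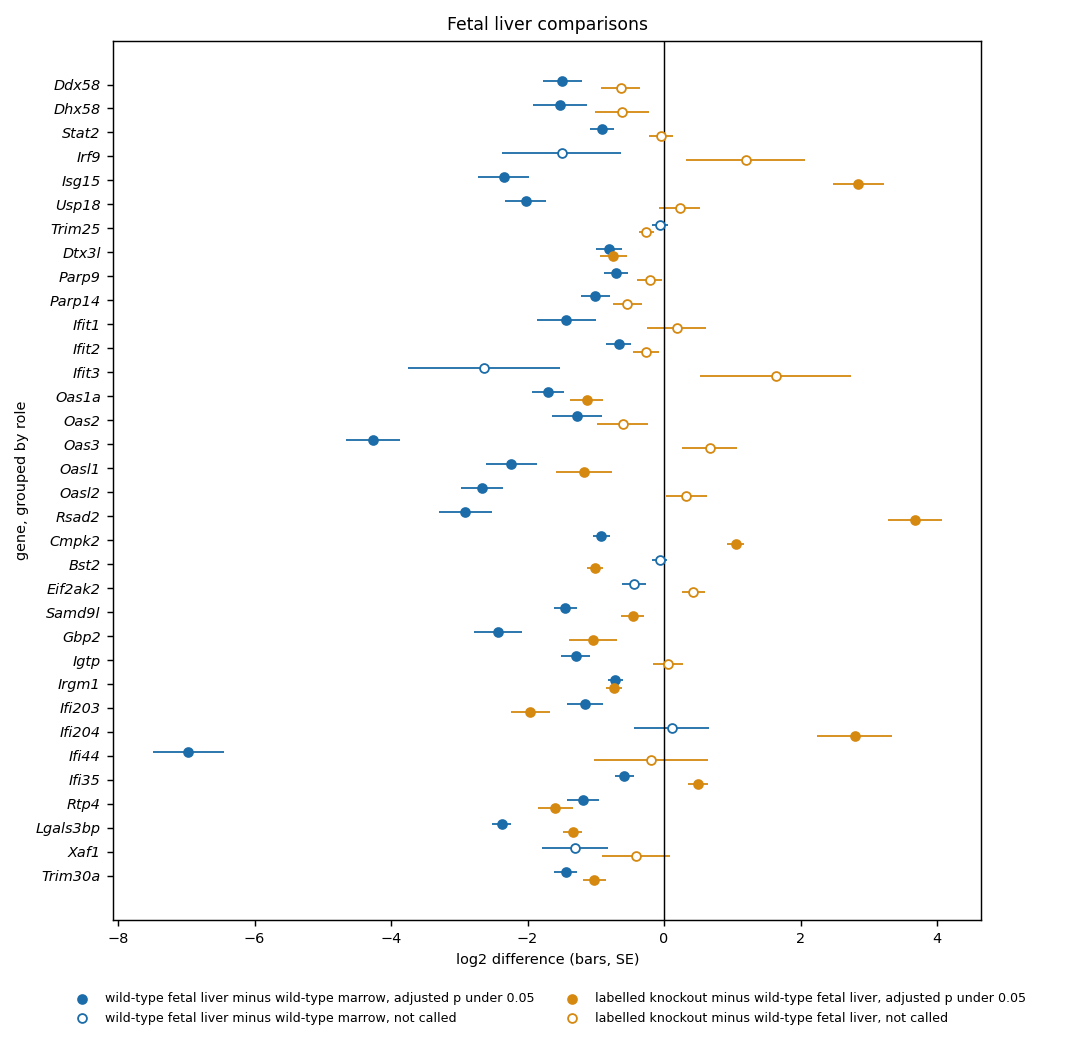
Log2 differences of the 34 genes in the 2 fetal comparisons. Blue is wild-type fetal liver minus wild-type marrow, orange is the labelled Lin28b knockout minus wild-type fetal liver, filled points are called at adjusted p under 0.05, and bars are standard errors. The blue points lie left of 0 for 33 of 34 genes, while the orange points fall on both sides, with Rsad2, Isg15 and Ifi204 farthest to the right. The comparisons share the wild-type fetal libraries.

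The libraries labelled Lin28b KO were compared with wild-type fetal liver as the study's loss-of-function arm. Genes of the set were called in both directions. In the labelled knockout 5 genes were called higher, namely Rsad2, Isg15, Ifi204, Cmpk2 and Ifi35. Another 11 were called lower, namely Dtx3l, Oas1a, Oasl1, Bst2, Samd9l, Gbp2, Irgm1, Ifi203, Rtp4, Lgals3bp and Trim30a. Both shares are to be read against a high background, since 20.8% of all tested genes were called higher and 23% lower. Calls in both directions therefore do not by themselves set these genes apart. The median log2 difference of the set was -0.26 against 0 over all genes. Rsad2 rose by 12.8-fold (log2 3.67 ± 0.40, adjusted p = 2.03e-06) and Isg15 by 7.18-fold (log2 2.84 ± 0.37, adjusted p = 1.52e-05). Ifi204 (2.79 ± 0.55, adjusted p = 0.000675) and Cmpk2 (1.05 ± 0.13, adjusted p = 6.88e-06) rose too. Among the genes that fell, Ifi203 (-1.96 ± 0.29, adjusted p = 4.66e-05) and Rtp4 (-1.59 ± 0.26, adjusted p = 0.00011) fell most, and Lgals3bp (-1.34 ± 0.14, adjusted p = 1.4e-06) and Bst2 (-1.01 ± 0.11, adjusted p = 2.29e-06) had smaller errors. The transducers Stat2 (log2 -0.04 ± 0.18) and Irf9 (1.20 ± 0.87) were not called, nor were the sensors Ddx58 (-0.64 ± 0.29) and Dhx58 (-0.62 ± 0.40) or any IFIT gene.

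Within the labelled knockout the 3 libraries did not stand level. Library 3 was the highest of the 3 for 23 of the 34 genes (67.6%, against 38.7% of all tested genes) and library 6 the lowest for 26. Without labelled knockout library 6 the calls of Gbp2 (adjusted p = 0.0901), Oasl1 (adjusted p = 0.114) and Samd9l (adjusted p = 0.152) were lost, and each was also lost without some of the other 5 libraries compared; the other 13 calls held under every alternative tried. Of 37 tested further interferon-stimulated genes, 15 were higher and 9 lower. Ube2l6 rose, at 23.6, 18.2 and 18.5 CPM in wild type and 1790.5, 1504 and 1582 CPM in the labelled knockout (log2 6.34 ± 0.16, adjusted p = 2.41e-13). Socs3, a feedback inhibitor of cytokine receptors, was at 3.86, 3.98 and 3.38 CPM in wild type and 19.8, 20.5 and 20.4 CPM in the labelled knockout (log2 2.43 ± 0.29, adjusted p = 6.4e-06). Ifnar1 (-0.44 ± 0.11, adjusted p = 0.00326), Ifngr1 (-0.52 ± 0.12, adjusted p = 0.0023) and Irf2 (-0.63 ± 0.11, adjusted p = 0.000244) were lower. The erythroid, macrophage, neutrophil and hepatocyte markers given above were higher in the same libraries, and their part in the changes of the interferon genes was not tested.

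Against wild-type marrow, the labelled knockout libraries had 26 of the 34 genes called lower and 1, Ifi204, called higher, where 24.2% and 23.6% of all tested genes were called. The log2 difference was -3.72 ± 0.15 for Lgals3bp (adjusted p = 2.68e-11) and -3.60 ± 0.38 for Oas3 (adjusted p = 1.22e-06). Ifi204 was higher, by 2.90 ± 0.55 (adjusted p = 0.000444). Isg15 (0.49 ± 0.34) and Rsad2 (0.76 ± 0.35), which were lower in wild-type fetal liver than in marrow, were not called here. Without Ifi44, 25 of 33 genes were lower. Tissue and genotype change together in this comparison, and so do markers. All 8 erythroid markers (summed 21729 to 25214 CPM against 197 to 368) and 7 of 8 macrophage markers (320 to 372 against 27.9 to 46.1) were called higher. Of the progenitor markers, 5 of 5 tested were called lower (3239 to 5661 against 10348 to 12362, Kit and Cebpa not readable). The part of these markers in the result was not tested.

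The single inducible let-7 library has no replicate, so it was set beside the 3 wild-type fetal liver libraries without a test. It held 16 of the 34 genes at 300 or more counts, 7 at 1 to 9 counts, 11 at 0 and none in between, while 16.6% of all tested genes had at least 10 but fewer than 300 counts there. Genes past 2-fold and outside the wild-type range were 2 higher, Dhx58 and Cmpk2, and 16 lower, where 10.5% of all tested genes were higher and 32.5% lower. Cmpk2 was 2.62-fold and Dhx58 2.45-fold above the wild-type fetal mean. Among genes at 0, the floor of 3 counts in that library (0.116 CPM) puts Usp18 at least 78.3-fold lower, Gbp2 at least 56.0-fold lower and Ifi203 at least 33.6-fold lower. Oasl2, Oas2 and Ifi44 had 1 count each. Samd9l, with 9 counts, was 89.8-fold lower. Genes such as Stat2, Bst2 and Lgals3bp were above the wild-type range in the same library. Gaps of this kind were seen across the library: of 1723 genes at 5 to 20 CPM in wild-type fetal liver, 125 read 0 in this library, against 0 or 1 in the labelled knockout libraries and 1 to 24 in the marrow libraries, none of which were used to choose them. The part of this loss of detection in the low readings was not tested.

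The inducible LIN28B lines were compared with wild-type marrow as the study's gain-of-function arm in adult cells. Averaged over both lines, 3 of the 34 genes were called higher (Rtp4, Cmpk2 and Lgals3bp) and 2 lower (Bst2 and Trim30a), where 6.59% of all tested genes were called higher and 7.86% lower. Cmpk2 was higher by log2 0.57 ± 0.12 (adjusted p = 0.00527) and Lgals3bp by 0.50 ± 0.12 (adjusted p = 0.0129), while Bst2 was lower (-0.53 ± 0.10, adjusted p = 0.00367). Rtp4 (0.72 ± 0.22, adjusted p = 0.0431) and Trim30a (-0.56 ± 0.15, adjusted p = 0.0228) are the weaker calls: leaving out any 1 of 6 of the 7 libraries compared ended that of Rtp4, and leaving out wild-type marrow 2 or 6 or LIN28B without vavcre 5 left 3 calls.

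The lines gave different counts when read one at a time. In LIN28B without vavcre, 0 of the 34 genes were called, where 0.509% of all tested genes were called higher and 0.295% lower. At an unadjusted p under 0.05 in edgeR, 4 genes were lower and 0 higher, with no share of all tested genes taken. DESeq2 called 1, Trim30a, lower. The log2 differences ran from -2.01 (Ifi204, standard error 0.73) to 0.36 (Ddx58, standard error 0.30), with a median of -0.20. In LIN28B with vavcre, 11 genes were called higher and 2 lower, where 12.5% of all tested genes were called higher and 14.3% lower. The higher genes were Usp18, Ifit1, 4 of the 5 OAS genes (Oas1a, Oas2, Oasl1 and Oasl2), Cmpk2, Ifi204, Ifi44, Rtp4 and Lgals3bp. Ifi204 (log2 2.05 ± 0.58, adjusted p = 0.0163), Ifit1 (1.88 ± 0.45, adjusted p = 0.0064) and Rtp4 (1.43 ± 0.26, adjusted p = 0.000823) rose most, and Oasl2 rose by 1.20 ± 0.31 (adjusted p = 0.00937). Dtx3l (-0.83 ± 0.22, adjusted p = 0.0106) and Bst2 (-0.75 ± 0.12, adjusted p = 0.000476) fell. Neither sensor, neither transducer, no GTPase and neither Isg15 (log2 0.21 ± 0.38) nor Rsad2 (0.72 ± 0.38) was called. Each line was read against the same 3 wild-type marrow libraries. Without vavcre library 4 the calls of Usp18, Ifit1, Oas1a and Ifi44 were lost (adjusted p 0.0620 to 0.0904), and Bst2, Cmpk2, Lgals3bp, Oasl2 and Rtp4 kept theirs under every alternative tried.

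**Figure D5:**
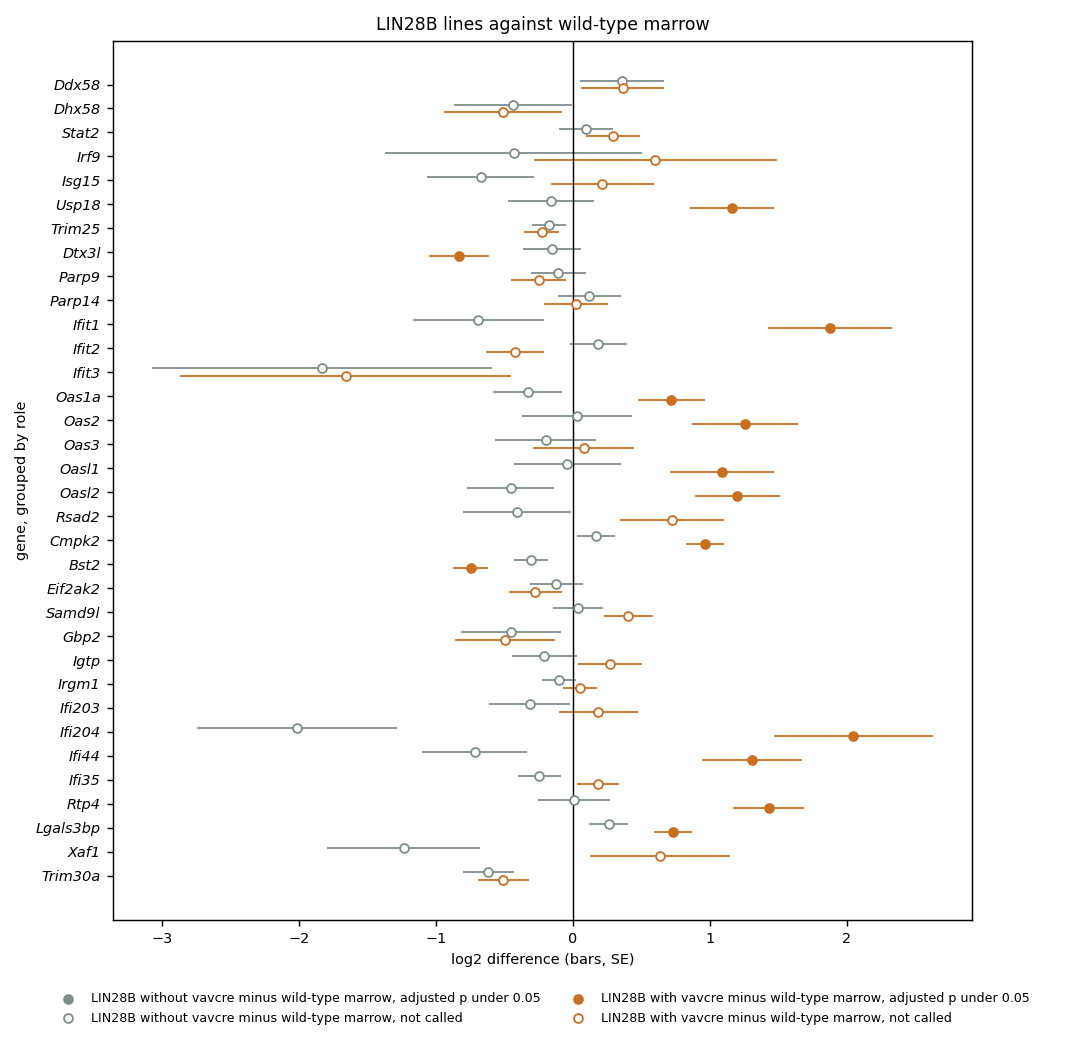
Log2 differences of the 34 genes in each LIN28B line against wild-type marrow. Grey is LIN28B without vavcre, orange is LIN28B with vavcre, filled points are called at adjusted p under 0.05 and bars are standard errors. No grey point is filled, whereas 13 orange points are, 11 of them to the right of 0.

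The direct comparison of the lines tests that difference itself. Mouse Lin28b transcripts were at 2.06 to 3.28 CPM without vavcre and 1.73 to 3.92 CPM with it, against 0.0586 to 0.745 CPM in wild-type marrow. Whether these counts measure the induced LIN28B was not tested, so no degree of induction is read from them. No library carries vavcre alone, so induction and vavcre cannot be told apart. With vavcre, 10 genes were called higher and 1 lower than without it, where 9.37% of all tested genes were called higher and 11.3% lower. Ifi204 (4.06 ± 0.77, adjusted p = 0.0018), Ifit1 (2.57 ± 0.53, adjusted p = 0.00336) and Ifi44 (2.03 ± 0.43, adjusted p = 0.00362) differed most in log2 terms. Xaf1 (1.87 ± 0.60, adjusted p = 0.0379), Oasl2 (1.66 ± 0.35, adjusted p = 0.00392), Rtp4 (1.43 ± 0.29, adjusted p = 0.00307) and Usp18 (1.32 ± 0.35, adjusted p = 0.0144) followed, and Oas1a (1.05 ± 0.27, adjusted p = 0.0132), Cmpk2 (0.80 ± 0.15, adjusted p = 0.00195) and Lgals3bp (0.47 ± 0.16, adjusted p = 0.0439) were smaller. Bst2 was lower (-0.44 ± 0.13, adjusted p = 0.0299). In 20 of the 34 genes both vavcre values lay above both values without vavcre, and in 3 both lay below. Such separation was not counted over all tested genes, so these 2 counts only describe the set. With only the 4 libraries of these lines in the fit the count fell to 2, and without LIN28B (no vavcre) library 5 it fell to 5; Oasl2 and Rtp4 were called under every alternative tried. Ifnar1, the interferon receptor subunit, was at 130.4 and 117 CPM without vavcre and 191 and 210.3 CPM with it, against 102, 123 and 107 CPM in wild-type marrow, and was called higher in both readings (log2 0.86 ± 0.12, adjusted p = 9.22e-05 against wild type and 0.70 ± 0.13, adjusted p = 0.00156 between the lines). Among the adaptors, Myd88 (0.59 ± 0.13, adjusted p = 0.00381) and Ikbke (0.86 ± 0.21, adjusted p = 0.00825) were higher with vavcre and Ticam1 (-0.77 ± 0.24, adjusted p = 0.0331) was lower. Of 37 tested further interferon-stimulated genes, 6 were higher and 1 lower between the lines. Socs3 was called higher than wild-type marrow in both lines, at log2 1.49 ± 0.31 (adjusted p = 0.0397) without vavcre and 1.90 ± 0.31 (adjusted p = 0.000407) with it. Beside these values, neutrophil markers were summed at 484 and 2791 CPM in the vavcre libraries and at 603 to 911 CPM without vavcre, with 1 of 7 tested called higher. Of 6 tested plasmacytoid dendritic cell markers, Siglech was called higher and Bst2 lower. Klk1 was at 0 in both lines, and Ccr9 and Pacsin1 were not readable in any library. The list summed to 58.5 to 60.2 CPM with vavcre and 59.3 to 68.0 CPM without. Most of that sum was Bst2, itself one of the 34 genes. Siglech was at 0.0607 and 0 CPM without vavcre and 3.84 and 5.15 CPM with it. Ly6d, not called, was at 1.64 and 0.752 CPM without vavcre and 6.33 and 7.34 CPM with it. Ranges of Tcf4, Spib and Cox6a2 overlapped between the lines. The part of these neutrophil and dendritic cell markers in the result was not tested.

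Progenitors lacking let-7b and let-7c were compared with wild-type marrow. Strain and genotype differ together here and cannot be told apart. In the knockout 3 genes were called lower and 0 higher, where 0.922% of all tested genes were called lower and 1.33% higher. They were Oasl2 (log2 -2.15 ± 0.30, adjusted p = 0.00166), Samd9l (-1.01 ± 0.17, adjusted p = 0.00651) and Rtp4 (-0.99 ± 0.24, adjusted p = 0.0426). The median log2 difference was -0.37 against 0.00 over all genes, with 27 of 34 differences below 0. At an unadjusted p under 0.05 in edgeR, 10 genes were lower and 1 higher, with no share of all tested genes taken. Isg15 (log2 -0.98 ± 0.35), Usp18 (-0.91 ± 0.29), Ddx58 (-0.82 ± 0.28) and Oas3 (-0.75 ± 0.33) had all 3 knockout values below all 3 wild-type values and were not called. Of the 34 genes, 13 lay below in this way, 1 lay above and 20 overlapped. Such separation was not counted over all tested genes, so it only describes the set. Library 2 of the knockout was the lowest of its group for 21 of the 34 genes, and without it the adjusted p of Rtp4 was 0.162. The Rtp4 call was also lost without knockout library 1 (adjusted p = 0.0781), without any 1 of the 3 wild-type marrow libraries (adjusted p 0.106 to 0.127) and with only these groups in the fit (adjusted p = 0.0513). DESeq2 called 6 genes in place of 3. The count was 5 when either vavcre library, which is in neither group, was left out of the shared estimate of spread. Ifnar2, the other receptor subunit, was higher (0.56 ± 0.11, adjusted p = 0.014), and Ube2l6 was lower (-0.59 ± 0.13, adjusted p = 0.0224). Monocyte markers were higher in the same libraries, with 3 of 7 tested called (summed 1757 to 2303 CPM against 257 to 311, none at 0), and their part in the result was not tested.

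Set directly against the mean of the LIN28B lines, the let-7b/c knockout had 10 genes called lower and 1, Bst2, called higher, where 8% of all tested genes were called lower and 10.5% higher. Oasl2 (-2.52 ± 0.29, adjusted p = 8.11e-05), Rtp4 (-1.71 ± 0.23, adjusted p = 0.000229) and Usp18 (-1.41 ± 0.28, adjusted p = 0.00267) differed most, and Samd9l (-1.23 ± 0.16, adjusted p = 0.000164), Ddx58 (-1.19 ± 0.27, adjusted p = 0.00659) and Oas2 (-1.18 ± 0.34, adjusted p = 0.0267) were also lower. The others lower were Ifi203, Oas1a, Cmpk2 and Irgm1, and Bst2 was higher by 0.65 ± 0.10 (adjusted p = 0.000592). The count fell to 6 with only these groups in the fit and to 7 without let-7b/c knockout library 2 or without LIN28B (no vavcre) library 1. Strain differs here too, and monocyte markers ran from 75.9 to 165 CPM in the LIN28B lines against the knockout values above, with 5 of 7 tested called higher in the knockout.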

How the data were processed

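RNA was extracted with Trizol and made into libraries with low-input SMARTer kits, per the labels' protocols. Per the submitters' processing notes, reads were processed with cutadapt, TopHat2 and HTSeq on build mm10, with no versions named there. The files deposited by the authors hold whole-number counts for each RefSeq transcript, and their closing lines list reads that fitted several transcripts or none, which entered no count. Transcript counts were summed per gene with the RefSeq table, and 192 of 33818 accessions stayed unnamed. The 39 genes and the pathway and marker lists were chosen with earlier results of these data known.

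Counts were tested with edgeR 4.0.16 in R 4.3.3 (TMM scaling, its own low-count filter, quasi-likelihood test, Benjamini-Hochberg adjustment over all 13558 genes, threshold 0.05), with 7 group means in 1 fit and 10 residual degrees of freedom; group differences of 9 kinds were tested. The single let-7 library was read by a 2-fold limit without a test. Comparisons share libraries: 6 of the 9 use the same wild-type marrow group. Summed counts per library were 14957111 to 28165554, and floors of 3 counts cover counting error only. Values in every library are printed for 25 genes: the 2 kept genes of each role with the highest mean CPM and the 3 called genes with the largest change in each comparison. Other genes are given by range. Alternatives were DESeq2 1.42.0, its size factors, no low-count filter, minimums of 10 counts in 2 libraries or 30 counts in 3, genes of 1 transcript, only the groups compared, and leaving out each library, as well as leaving out the let-7 library, which was added after seeing its many 0 counts, and a replicate block for the mean of the LIN28B lines, also added after seeing the data. The fit was tested on simulated data with known changes. Promoter sequences are RefSeq windows of build GRCm38.p6.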

Additional observations from a re-analysis of the deposited data

Results flagged for a closer look

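The LIN28B line with vavcre differed from the line without it in 11 of the 34 genes, by edgeR's quasi-likelihood test of that difference itself, with 2 libraries in each line. Both lines were read against the same wild-type marrow, with no library of vavcre alone. The differences, on the log2 scale and as vavcre minus no vavcre, were 4.06 for Ifi204, 2.57 for Ifit1, 2.03 for Ifi44, 1.87 for Xaf1 and 1.66 for Oasl2. They were 1.43 for Rtp4, 1.32 for Usp18, 1.05 for Oas1a, 0.80 for Cmpk2, 0.47 for Lgals3bp and -0.44 for Bst2. Ifi204 was at 3.54 CPM or less in every marrow library, so its difference rests on few counts. Only Oasl2 and Rtp4 passed the threshold under every alternative tried.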

How the results depend on the processing

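Of 2711 called values recomputed under the alternatives, 2536 kept their call and direction, 175 lost the call and 0 changed direction. With only the groups compared in the fit, the count of called genes was 1 for LIN28B without vavcre against wild-type marrow (main 0), 2 between the LIN28B lines (main 11) and 6 for let-7b/c knockout against the LIN28B lines (main 11). DESeq2 called 1, 16 and 6 genes for LIN28B without vavcre against wild type, between the LIN28B lines and for let-7b/c knockout against wild type (main 0, 11 and 3). With 1 library left out, counts ran from 3 to 7 for the mean of the LIN28B lines against wild type (main 5), from 5 to 15 between the LIN28B lines, from 2 to 5 for let-7b/c knockout against wild type and from 7 to 14 against the LIN28B lines. In the other comparisons they ran from 23 to 29 (fetal liver against marrow), 14 to 19 (labelled knockout against wild-type fetal liver), 25 to 27 (labelled knockout against marrow) and 10 to 14 (LIN28B with vavcre against wild type), and were 0 throughout for LIN28B without vavcre. A LIN28B line left with 1 library is assumed to vary like the other groups. The causes of these shifts were not tested. Only the mean of the LIN28B lines and wild-type marrow share 2 replicate numbers (5 and 6). With the number as a replicate block, an alternative added after seeing the data, 1 gene, Cmpk2, was called in place of 5. Deviations from the group means of the same-numbered libraries had correlations of -0.04 and 0.03 across genes. With 2 libraries in a line, their deviations mirror each other. These correlations therefore cannot decide whether same-numbered libraries share more than a number. Reads set aside as ambiguous limit genes of several transcripts, and genes under 1 CPM, such as Irf9, are limited by depth.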
